A study of Homo sapiens with 96 samples.

Results

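TRA2A, TRA2B, SRSF10, SRSF11, SRRM1, and SRRM2 encode 6 nuclear proteins with stretches rich in arginine and serine that act on pre-mRNA splicing beside the classical SR proteins. All splicing events that the deposited tables list under these 6 gene symbols were taken, whatever their values, which gave 147 of 239131 listed events. TRA2A had 41 events, TRA2B 25, SRRM1 24, SRRM2 23, SRSF11 19, and SRSF10 15. They fall on 96 alternative segments, because 1 exon can be listed with several neighbours, and events of 1 segment share reads. Of the 147 events, 140 could be tested in at least 1 comparison and 7 never had enough reads.

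The data are poly(A)-RNA seq of A549 cells, a single established lung adenocarcinoma line, in 10 groups of 3 libraries. Cells received 0.01% DMSO for 4 or 7 days, a single inhibitor (GSK591 or MS023, each at 1 µM) for 2, 4, or 7 days, or the pair at the same doses for 2 or 4 days. GSK591 inhibits PRMT5, which makes symmetric dimethylarginine, and MS023 inhibits the Type I PRMTs, which make asymmetric dimethylarginine. The study asked how inhibition of either enzyme class changes splicing over time. No 2-day DMSO group was used here, so the 2-day inhibitor groups were set against DMSO at 4 days, and 2 days of treatment and the difference in culture time cannot be told apart there. The control of the 7-day tables is not named and was inferred from the labels to be DMSO at 7 days. The labels do not say whether the 3 libraries of a group came from separate cultures, so the spread between libraries may be technical. The p-values rest on read counts and on a spread between libraries that was moderated across events. They may not cover the spread between cultures.

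TRA2A and TRA2B are sequence-specific RNA-binding proteins that bind purine-rich exonic enhancers with GAA repeats and raise the inclusion of the exons that carry them. SRSF10 and SRSF11 carry an RNA recognition motif beside an arginine-serine domain, and SRRM1 and SRRM2 are large coactivator proteins without such a motif that collect in nuclear speckles. Genes of this kind often hold a so-called poison exon, whose inclusion brings an early stop codon and exposes the mRNA to nonsense-mediated decay, by which splicing factors limit their own level.

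Each value below is Ψ, the share of a gene's reads at an event that include the alternative segment after division by the effective length of each form, from 0 to 1. ΔΨ is the difference between 2 group means of Ψ, given with its SE from the spread between libraries. An event was called when the adjusted p of a quasi-binomial test, moderated with limma, was under 0.05. The letters a, b, and c stand for the order of the 3 values in a table cell. The events of a library took 72359972 to 110790627 reads, where 1 read can count on several events. Reads on events of KRT8 and KRT18, keratins of simple epithelia, reached 67780 and 44937 on a single event. KRT19, PTPRC, and CD3E had no listed event, EPCAM and CDH1 reached 92 and 192 reads, and the fibroblast gene COL1A1 reached 76. These tables hold no expression values, so a gene's RNA level was not measured.

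Library a of GSK591 at 2 days stood apart. In SRRM2, reads on the 63-nt exon were 0.200 of those on the 95-nt exon further 3′ in this library, against 0.669 to 1.87 in the other 29 libraries. The part of this library in the results was tested only by leaving it out, and values without it are given beside those results described with GSK591 at 2 days whose call it changed.

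With GSK591, inclusion of a short coding exon of SRSF10 fell at all 3 times, and a 42-nt coding exon of SRRM1 rose at 4 and 7 days, by 0.261 in Ψ at 7 days. A 130-nt exon of SRRM1 and the retained intron around it rose at 4 and 7 days of GSK591 by less, 0.0247 to 0.0601 in Ψ. With MS023 the 42-nt exon of SRRM1 rose at all 3 times. Under co-treatment SRSF10 moved less than under GSK591 alone, whereas a 95-nt exon of SRRM2 with an early stop codon rose from a mean Ψ of 0.121 in DMSO to 0.275 at 2 days and 0.239 at 4 days. That exon fell by 0.143 with GSK591 at 7 days. The 301-nt exon of TRA2A and the 276-nt exon of TRA2B, each with an early stop codon in a decay-target transcript, rose by 0.0294 to 0.0565 in Ψ in the comparisons with DMSO in which they were called.

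Against DMSO, 25 of the 147 events on 22 segments were called at least once. With GSK591, 5 of 85 tested events were called at 2 days, where 5.37% of all tested events were called. At 4 days it was 12 of 95, against 8.77% of all. At 7 days 14 of 71 were called, against 6.36% of all, and 8 of them were higher (3.12% of all) and 6 lower (3.24%). MS023 gave 3 of 93 at 2 days (1.62% of all), 2 of 89 at 4 days (2.10%), and 2 of 71 at 7 days (2.94%). Co-treatment gave 8 of 87 at 2 days, against 10.3% of all tested events, and 14 of 79 at 4 days, against 12.0%. The shares of MS023 and of co-treatment at 2 days lay near those of all genes, and the share of GSK591 at 7 days lay furthest above. Calls against DMSO depended on the model. With limma on log2 odds, which weighs each library's Ψ without its read count, only 2 of the 12 events called with GSK591 at 4 days, 1 of 8 and 2 of 14 under co-treatment at 2 and 4 days, and none at 2 and 7 days of GSK591 or with MS023 remained called.

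**Figure D1:**
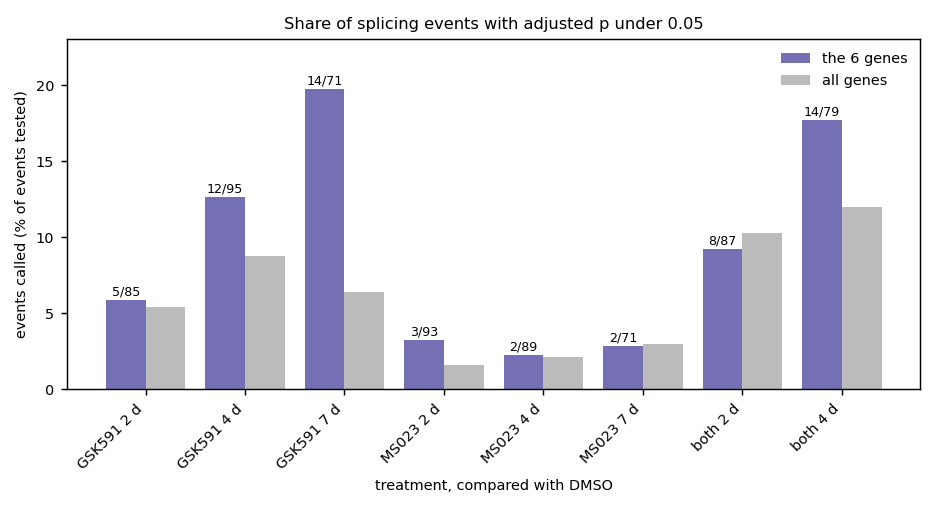
Bars give the percent of tested splicing events with an adjusted p under 0.05 in each comparison with DMSO, for the 6 genes (purple) and for all genes (grey), with the counts of the 6 genes above the bars. The widest gap is at 7 days of GSK591, with 14 of 71 events called against 6.36% of all.

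In TRA2A, a paralog of TRA2B, an exon of 301 nt lies at chr7:23561751-23562051 (hg19, minus strand) between the first exons and a coding exon. In the annotated transcript TRA2A-211 it holds an in-frame stop codon that starts at base 142 of the exon, and the transcript is classed as a target of nonsense-mediated decay. The same exon also lies in the untranslated part of TRA2A-202, which is annotated as protein coding, so the stop applies to the first transcript and not to every one that holds the exon. A form of 312 nt uses another donor site and is annotated in TRA2A-208, for which no coding frame is defined. The 276-nt exon of TRA2B at chr3:185649365-185649640 (minus strand) is built alike, with a stop at base 79 in TRA2B-205. The exon sequence that leads up to each stop codon is shown, with the stop in capitals, read 5′ to 3′ from GRCh37, because these stops are what sets both exons apart from coding cassettes.
TRA2A 301-nt exon, chr7:23561908-23561937: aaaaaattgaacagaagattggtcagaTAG
TRA2B 276-nt exon, chr3:185649560-185649589: aatgagtatttgaagctcaggaataagTGA

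Both exons are dense in AGAA, a core of the enhancers that TRA2 proteins are known to bind. Counted on the transcribed strand with overlaps allowed, AGAA starts 12 times in the 276-nt exon of TRA2B, and this exon alone of the 74 listed cassette exons of that length has as many (1.35%), while 79.7% of them hold at least 1. It starts 13 times in the 301-nt exon of TRA2A, the only one of 28 exons of its length with as many (3.57%), where 71.4% hold at least 1. A match describes the letters and shows no binding.

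At 4 days, Ψ of the TRA2A 301-nt exon was 0.0614, 0.0636, and 0.0622 in the DMSO libraries and 0.121, 0.0903, and 0.0989 with GSK591. All 3 GSK591 libraries lay above all DMSO libraries. The rise of 0.0410 (SE 0.00913, n = 3 and 3) had an adjusted p of 0.00864 in the limma-moderated test, and it was 0.0322 with an adjusted p of 0.105 without GSK591 library a. Co-treatment for 4 days gave 0.128, 0.134, and 0.0942, again all above DMSO, and a rise of 0.0565 (SE 0.0125, adjusted p = 7.65e-05). The 312-nt form, which shares the skipping reads, was called in the same 2 comparisons, with ΔΨ of 0.0431 (adjusted p = 0.00648) and 0.0577 (adjusted p = 7.65e-05). Without GSK591 library a its first call was lost as well (adjusted p = 0.0797). With limma on log2 odds the calls of both forms were lost (adjusted p of 0.537 and 0.358 for the 301-nt exon, and 0.538 and 0.368 for the 312-nt form).

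The 301-nt exon was not called against DMSO with MS023 at 4 days. The MS023 libraries gave 0.0908, 0.0582, and 0.0566, so that 1 lay above all DMSO libraries and the others below, with ΔΨ of 0.00615 (95% interval -0.0249 to 0.0372, adjusted p = 0.775). With GSK591 for 2 days ΔΨ was 0.0228 (adjusted p = 0.335) and for 7 days 0.0152 (adjusted p = 0.150), neither of which passed the test. GSK591 exceeded MS023 at 2 days by 0.0315 (adjusted p = 0.0266), a call lost without library a of GSK591 (difference 0.0284, adjusted p = 0.0944) as well as without MS023 library a or c or GSK591 library c (adjusted p of 0.350, 0.0848, and 0.120). DMSO itself was lower at 7 days, with a mean of 0.0293 ± 0.00524 (SD, n = 3), than at 4 days, with 0.0624 ± 0.00114. That difference was not tested, and culture time cannot be told apart from any batch of the 7-day libraries.

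A longer TRA2A form of 726 nt, annotated as a retained-intron transcript (TRA2A-209), starts where the 301-nt exon starts and runs through the next intron into the coding exon. Against the 166-nt coding exon further 3′, in an event listed as mutually exclusive exons, its Ψ was 0.0806, 0.0756, and 0.0791 in DMSO at 4 days. TRA2A-209 holds both segments, as exons 2 and 3, so this Ψ compares reads of 2 segments and is not the share of the 726-nt form. Reads of the 301-nt exon and of the coding exon that the segment contains can also count towards it. With GSK591 for 4 days this Ψ was 0.169, 0.136, and 0.136, and with co-treatment 0.163, 0.171, and 0.116. No treated library overlapped DMSO, and ΔΨ was 0.0687 (SE 0.0112, adjusted p = 2.72e-11) and 0.0715 (SE 0.0175, adjusted p = 8.75e-12). At 7 days it rose with GSK591 from 0.0692 ± 0.00403 to 0.106 ± 0.0106 (SD, n = 3 each, adjusted p = 0.00133), and at 2 days ΔΨ was 0.0236 (adjusted p = 0.214). Without library a of GSK591 at 2 days the latter was 0.0314 with an adjusted p of 0.0436, and the difference from MS023 at 2 days went from 0.0269 (adjusted p = 0.0541) to 0.0347 (adjusted p = 0.00500). With limma on log2 odds the calls of co-treatment at 4 days and GSK591 at 7 days were lost (adjusted p of 0.0624 and 0.124). As a cassette exon the same 726-nt segment stood at 0.968 to 0.997 in the group means and was not called against DMSO in any of the 8 comparisons, and reads of the coding exon that it contains can count towards it.

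The 513-nt intron within that form, at chr7:23561460-23561972, was not called against DMSO either. The intron overlaps the 301-nt exon and the 312-nt form, whose reads can count as intron reads, so that these are not independent. Its Ψ rests on few spliced reads, from 0 to 16 per library. It was called between the inhibitors at all 3 times, for example with 1.00, 0.967, and 0.971 in GSK591 and 0.833, 0.836, and 0.799 in MS023 at 2 days, which do not overlap (ΔΨ 0.157, SE 0.0156, adjusted p = 0.00152). At 4 days the difference was 0.129 (adjusted p = 0.00196) and at 7 days 0.122 (adjusted p = 0.0193). The 7-day call was lost without MS023 library a or b or GSK591 library a, with adjusted p of 0.0673, 0.0896, and 0.172.

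A 90-nt exon in the 5′ UTR of 2 annotated TRA2A transcripts, at chr7:23570800-23570889, rose from 0.0208, 0.0213, and 0.0164 in DMSO at 7 days to 0.0369, 0.0430, and 0.0437 with GSK591. These libraries did not overlap, yet the call (ΔΨ 0.0217, SE 0.00268, adjusted p = 0.0463) was lost in all 6 fits that left out 1 library, with adjusted p from 0.0758 to 0.174. The same 2 exons, listed with each other as neighbours, gave larger differences on fewer reads, and these events were singled out after their values were seen. Between the 90-nt exon and the coding exon, the 301-nt exon went from 0.619 in DMSO to 0.878 under 4 days of co-treatment (adjusted p = 0.0238, at least 70 reads per library). Upstream of the 301-nt exon, the 90-nt exon went from 0.263 to 0.568 with GSK591 for 7 days (adjusted p = 0.0275, at least 22 reads) and from 0.261 to 0.514 with co-treatment for 2 days (adjusted p = 0.0444, at least 33 reads).

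**Figure D2:**
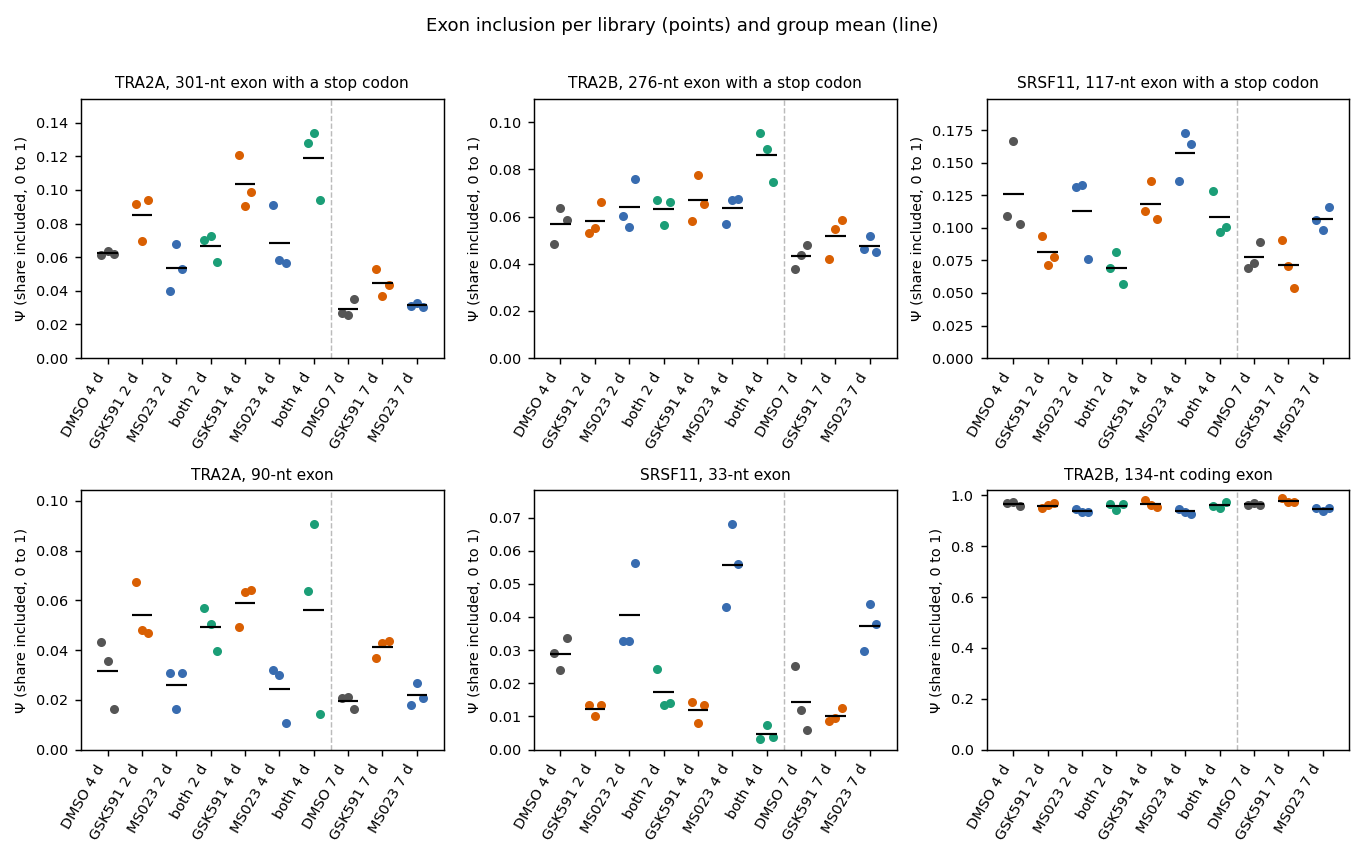
Each panel plots Ψ per library (points) and the group mean (line) for exons of TRA2A, TRA2B, and SRSF11 in the 10 groups, with the 7-day groups right of the dashed line and each vertical axis from 0. TRA2A inclusion is highest after 4 days of GSK591 or co-treatment, and TRA2B inclusion of the 276-nt exon is highest under 4 days of co-treatment, with a mean of 0.0862.

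In TRA2B the 276-nt exon was called in 1 comparison with DMSO. Ψ was 0.0482, 0.0638, and 0.0586 in DMSO at 4 days and 0.0955, 0.0885, and 0.0747 under 4 days of co-treatment. All co-treated libraries were above all DMSO libraries, and ΔΨ was 0.0294 (SE 0.00764, adjusted p = 0.000406). The call was lost with limma on log2 odds (adjusted p = 0.554). With GSK591 alone for 4 days ΔΨ was 0.0103 (95% interval -0.00989 to 0.0304, adjusted p = 0.404), and the direct difference between co-treatment and GSK591 of 0.0191 missed the threshold (adjusted p = 0.179). Across the 10 groups the means ran from 0.0432 in DMSO at 7 days to 0.0862, and each neighbour in that order overlapped the next.

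A second TRA2B exon, the 134-nt coding exon at chr3:185644389-185644522, went down with MS023. At 2 days the values were 0.969, 0.974, and 0.957 in DMSO and 0.946, 0.935, and 0.934 with MS023, with no overlap (ΔΨ -0.0282, SE 0.00643, adjusted p = 0.00962). At 4 days MS023 gave 0.948, 0.936, and 0.928 (ΔΨ -0.0293, adjusted p = 0.00422), and at 7 days ΔΨ was -0.0173 (adjusted p = 0.266). Calls at 2 days were lost without DMSO library a or b or MS023 library b or c (adjusted p 0.0727 to 0.152), and at 4 days without DMSO library b or MS023 library c (adjusted p of 0.102 and 0.0773). Both MS023 calls were lost with limma on log2 odds (adjusted p of 0.718 and 0.676). GSK591 exceeded MS023 in this exon at 4 days by 0.0299 (adjusted p = 0.00382) and at 7 days by 0.0317 (adjusted p = 0.00108), and those calls were lost without GSK591 library a of the same day (adjusted p of 0.136 and 0.0575). Both were also lost with limma on log2 odds (adjusted p of 0.262 and 0.124). With a prior of the dispersion taken from all events they were lost too (adjusted p of 0.233 and 0.146). At 2 days GSK591 minus MS023 was 0.0218 (adjusted p = 0.0632), and 0.0266 without GSK591 library a (adjusted p = 0.0277).

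SRSF10, a protein that represses splicing when it is dephosphorylated and otherwise acts as a sequence-dependent regulator, showed the largest drop among the 6 genes. Exon 5 codes for protein in 2 forms, of 54 nt at chr1:24298063-24298116 and of 51 nt at chr1:24298063-24298113 (minus strand), which differ by an acceptor site 3 bases further in. The exon is printed first, with the 3 bases that only the longer form holds in capitals, and then the acceptor, with the last 2 intron bases of the longer form and the 3 bases that follow in capitals, since both forms and the 3-base choice were measured.
SRSF10 54-nt exon, chr1:24298063-24298116: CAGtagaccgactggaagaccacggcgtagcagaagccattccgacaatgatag
SRSF10 acceptor, chr1:24298111-24298136: ttttctgatatgctttttAGCAGtag

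Inclusion of the 54-nt form was near complete in DMSO at 4 days, with Ψ of 0.964, 0.959, and 0.957. GSK591 brought it to 0.798, 0.798, and 0.812 at 2 days and to 0.719, 0.835, and 0.819 at 4 days. At 7 days it was 0.948, 0.954, and 0.938 in DMSO and 0.822, 0.772, and 0.805 with GSK591. At each time every GSK591 library lay below every DMSO library. ΔΨ was -0.157 (SE 0.00509, adjusted p = 5.23e-12), -0.169 (SE 0.0362, adjusted p = 2.76e-13), and -0.147 (SE 0.0154, adjusted p = 5.11e-15). Reads that skip the exon numbered 14 to 19 per DMSO library at 4 days and 66 to 90 per GSK591 library at 2 days. Without library a of GSK591 at 2 days the fall was -0.154 (adjusted p = 1.15e-09). With limma on log2 odds none of the 3 falls against DMSO passed the threshold (adjusted p of 0.123, 0.0713, and 0.118).

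The 51-nt form shares these skipping reads, so it is not a separate measurement of skipping. Its own inclusion reads gave a larger fall, from a mean of 0.914 ± 0.00396 in DMSO at 4 days to 0.639 ± 0.0360 at 2 days and 0.605 ± 0.118 at 4 days of GSK591, and from 0.873 ± 0.0146 to 0.523 ± 0.0404 at 7 days (SD, n = 3 each). All 3 falls were called, with adjusted p of 2.70e-11, 3.79e-13, and 2.37e-19. With limma on log2 odds none of these 3 calls was kept (adjusted p of 0.122, 0.0674, and 0.0718). GSK591 library a at 4 days was the lowest of that group, at 0.477 against 0.630 and 0.710, and the fall without it was -0.245. With a different downstream exon the 51-nt form, an event singled out after its values were seen, was called at 7 days of GSK591 as well (0.992 to 0.901, adjusted p = 0.0443).

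MS023 did not give the same fall. For the 54-nt form it gave 0.985, 0.978, and 0.971 at 2 days and means of 0.980 and 0.969 at 4 and 7 days, each a little above its DMSO group, and none of the 3 differences passed the test (ΔΨ 0.0183, 0.0198, and 0.0224, with adjusted p of 0.644, 0.554, and 0.312). Set directly against each other, the 2-, 4-, and 7-day differences of GSK591 minus MS023 were -0.175, -0.189, and -0.169, with adjusted p of 1.60e-15, 2.23e-18, and 6.55e-23. These 3 differences were also called with limma on log2 odds (adjusted p of 0.0445, 0.0426, and 0.0277). With a prior of the dispersion taken from all events the 4-day call was lost (adjusted p = 0.0714), as was that of the 51-nt form (adjusted p = 0.102).

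Under co-treatment the 54-nt form stood between GSK591 and DMSO. At 2 days its values of 0.961, 0.945, and 0.928 overlapped DMSO (ΔΨ -0.0149, 95% interval -0.0416 to 0.0118, adjusted p = 0.596) and exceeded GSK591 alone by 0.142 (SE 0.0105, adjusted p = 4.54e-07). At 4 days they were 0.901, 0.881, and 0.891, below DMSO (ΔΨ -0.0686, adjusted p = 0.00499) and, with a mean of 0.891 against 0.791, above GSK591 alone (SE of the difference 0.0366, adjusted p = 0.0188). The last call was lost without GSK591 library a (difference 0.0644, adjusted p = 0.334) and without any 1 co-treated library (adjusted p 0.0550 to 0.134). The 51-nt form moved alike, exceeding GSK591 by 0.225 at 2 days (adjusted p = 0.000135), while its difference at 4 days of 0.145 was not called (adjusted p = 0.116). The differences between co-treatment and GSK591 were not called with limma on log2 odds (adjusted p of 0.189 and 0.364 for the 54-nt form and 0.223 for the 51-nt form at 2 days).

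The choice between both acceptors was tested on its own, with Ψ as the share that keeps the 3 bases. It was 0.765, 0.793, and 0.794 in DMSO at 7 days and 0.874, 0.833, and 0.841 with GSK591, which do not overlap, and the rise of 0.0652 (SE 0.0159) had an adjusted p of 0.000298. Without GSK591 library a it was 0.0528 with an adjusted p of 0.0513. With limma on log2 odds the call was lost as well (adjusted p = 0.490). At 2 and 4 days of GSK591 the same share did not pass the test (adjusted p of 0.910 and 0.704). Of the 5 SRSF10 events tested at 7 days of GSK591, 4 were called, against 6.36% of all tested events, but all of them lie on the same exon and share reads.

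SRSF11, whose protein binds splicing factors through an arginine-serine domain, has a 117-nt exon at chr1:70697542-70697658 (plus strand) that lies in transcripts classed as decay targets. In SRSF11-212 its stop codon starts at base 48. The bases up to that stop are shown with the stop in capitals, as for the TRA2 exons.
SRSF11 117-nt exon, chr1:70697562-70697591: gttgttcataaaacagcttttgaaagtTGA

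This exon was included less under co-treatment for 2 days, with 0.0694, 0.0814, and 0.0566 against 0.109, 0.167, and 0.103 in DMSO. The groups did not overlap, and ΔΨ was -0.0574 (SE 0.0216, adjusted p = 0.00837). DMSO library b lay above libraries a and c, and without it the difference was -0.0371 with an adjusted p of 0.259. Without co-treated library c the adjusted p was 0.0614, and with limma on log2 odds it was 0.403. Under co-treatment for 4 days ΔΨ was -0.0178 (adjusted p = 0.576).

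A 33-nt exon of SRSF11, listed in a transcript without a defined coding frame (SRSF11-208), separated the inhibitors. In DMSO at 4 days Ψ was 0.0290, 0.0239, and 0.0336. Co-treatment for 4 days brought it to 0.00324, 0.00727, and 0.00392, all below DMSO (ΔΨ -0.0240, SE 0.00307, adjusted p = 0.00279). GSK591 was below MS023 at every time, with -0.0283 at 2 days (adjusted p = 0.0160), -0.0438 at 4 days (adjusted p = 2.79e-05), and -0.0269 at 7 days (adjusted p = 0.00968). At 4 days the values were 0.0142, 0.00815, and 0.0134 in GSK591 and 0.0430, 0.0680, and 0.0561 in MS023, with no overlap. The 2-day call was lost without MS023 library c or GSK591 library b (adjusted p of 0.144 and 0.0786) and the 7-day call without MS023 library b or GSK591 library a (adjusted p of 0.0604 and 0.0577). Neither inhibitor alone was called against DMSO in this exon.

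SRRM1, a coactivator that bridges factors bound to exonic enhancers and the splicing machinery, was the member that responded to MS023 at every time. The exon concerned is a 42-nt coding exon, exon 13 of SRRM1-202, at chr1:24989674-24989715 (plus strand). The whole exon is given because its inclusion changed most with MS023 and it keeps the reading frame.
SRRM1 42-nt exon, chr1:24989674-24989715: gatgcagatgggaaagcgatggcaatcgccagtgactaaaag

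In DMSO at 4 days Ψ of this exon was 0.464, 0.475, and 0.528. With MS023 it was 0.658, 0.717, and 0.687 at 2 days and 0.740, 0.736, and 0.737 at 4 days. At 7 days the DMSO libraries gave 0.440, 0.345, and 0.463 and the MS023 libraries 0.703, 0.782, and 0.681. All MS023 libraries lay above all DMSO libraries at each time. ΔΨ was 0.199 (SE 0.0261, adjusted p = 6.28e-07), 0.249 (SE 0.0198, adjusted p = 2.68e-12), and 0.306 (SE 0.0476, adjusted p = 9.14e-12), and each call was kept in all 6 fits that left out 1 library. With limma on log2 odds the adjusted p was 0.630, 0.472, and 0.301, and all 3 calls were lost.

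GSK591 raised the same exon later. At 2 days its libraries of 0.512, 0.424, and 0.393 overlapped DMSO (ΔΨ -0.0460, 95% interval -0.159 to 0.0668, adjusted p = 0.467). At 4 days they were 0.596, 0.592, and 0.603 (ΔΨ 0.108, SE 0.0200, adjusted p = 0.0158) and at 7 days 0.699, 0.665, and 0.666 (ΔΨ 0.261, SE 0.0381, adjusted p = 1.11e-07), both without overlap. The 4-day call was lost without DMSO library a or b or GSK591 library c, with adjusted p of 0.127, 0.0689, and 0.0645. With limma on log2 odds the 4-day and 7-day calls were both lost (adjusted p of 0.613 and 0.246).

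The difference between the inhibitors in the 42-nt exon was tested directly. GSK591 minus MS023 was -0.245 at 2 days (SE 0.0394, adjusted p = 1.20e-11), -0.141 at 4 days (SE 0.00364, adjusted p = 0.000169), and -0.0455 at 7 days (95% interval -0.136 to 0.0454, adjusted p = 0.569), where the libraries overlapped. With limma on log2 odds the 2-day and 4-day calls were lost (adjusted p of 0.154 and 0.156). With a prior of the dispersion taken from all events the 2-day call was lost (adjusted p = 0.0829). Co-treatment gave 0.641, 0.571, and 0.554 at 2 days (ΔΨ 0.0994, adjusted p = 0.0258) and 0.657, 0.723, and 0.709 at 4 days (ΔΨ 0.207, adjusted p = 9.14e-09). The 2-day call was lost without DMSO library a or b or co-treated library a (adjusted p of 0.153, 0.0915, and 0.246). Both co-treatment calls were lost with limma on log2 odds (adjusted p of 0.594 and 0.247). Over all groups the means ordered from 0.416 in DMSO at 7 days to 0.738 in MS023 at 4 days. DMSO at 4 days was separated from the next higher group, and the 5 highest groups each overlapped their neighbour. A pair of exons of 81 and 145 nt upstream, called with GSK591 at 4 days as mutually exclusive (0.523 ± 0.0183 to 0.636 ± 0.0181, SD, n = 3 each, adjusted p = 0.00560), shares reads of the junction that skips the 42-nt exon, and its call was lost without GSK591 library c (adjusted p = 0.0640). The pair lies together in SRRM1-202, as exons 10 and 12, so its Ψ compares reads of exons that 1 transcript can hold.

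**Figure D3:**
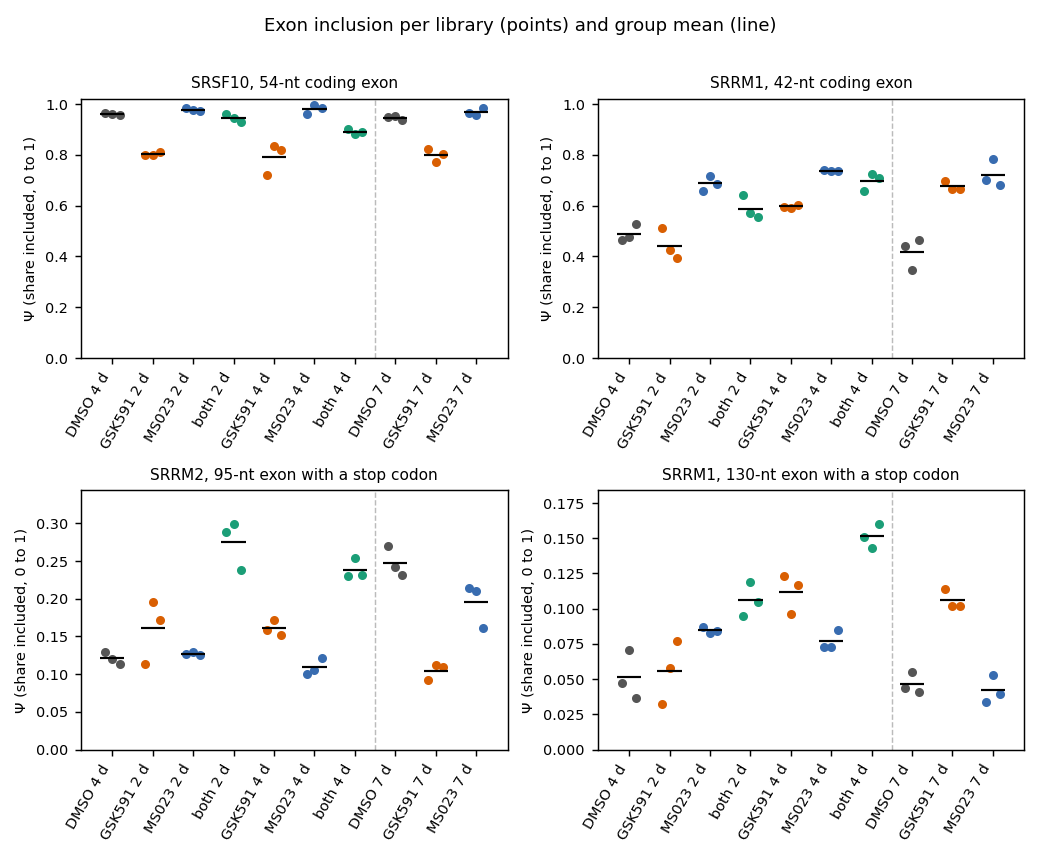
Each panel plots Ψ per library (points) and the group mean (line) for 4 exons of SRSF10, SRRM1, and SRRM2 in the 10 groups, with the 7-day groups right of the dashed line and each vertical axis from 0. The SRSF10 exon is lowest in the 3 GSK591 groups, and the SRRM1 42-nt exon is highest with MS023.

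Near its 5′ end SRRM1 has a 2069-nt intron, at chr1:24973281-24975349, with a 130-nt exon inside it at chr1:24973570-24973699. In SRRM1-222, a decay target, the exon meets a stop codon at base 4, which the first bases of the exon show in capitals.
SRRM1 130-nt exon, chr1:24973570-24973575: gccTGA

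Ψ of the 130-nt exon was 0.0475, 0.0709, and 0.0363 in DMSO at 4 days, and 0.123, 0.0960, and 0.117 with GSK591 at 4 days. Co-treatment gave 0.0949, 0.119, and 0.105 at 2 days and 0.151, 0.143, and 0.160 at 4 days. None of these treated libraries overlapped DMSO. The rises were 0.0601 (SE 0.0130, adjusted p = 0.000826) with GSK591, and 0.0548 (SE 0.0123, adjusted p = 0.00196) and 0.0999 (SE 0.0113, adjusted p = 2.65e-08) with co-treatment. At 7 days GSK591 raised it from 0.0465 ± 0.00735 to 0.106 ± 0.00710 (adjusted p = 0.00138). The co-treatment call at 2 days was lost without DMSO library c (adjusted p = 0.0522). All 4 calls were lost with limma on log2 odds (adjusted p of 0.354 and 0.329 with GSK591 at 4 and 7 days, and 0.306 and 0.128 with co-treatment at 2 and 4 days). MS023 for 2 and 4 days gave means of 0.0846 and 0.0770, above the 0.0516 of DMSO, yet neither difference passed the test (adjusted p of 0.328 and 0.523).

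Retention of the intron around it followed, although reads within the 130-nt exon can count as intron reads, so that both are not independent. Among introns a call was common, with 39.5% of all tested introns called with GSK591 at 4 days and 28.9% at 7 days, 35.1% and 40.1% with co-treatment at 2 and 4 days, and 5.45% with MS023 at 2 days. Retention was 0.0597, 0.0517, and 0.0415 in DMSO at 4 days, 0.109, 0.0858, and 0.101 with GSK591 (ΔΨ 0.0477, SE 0.00861, adjusted p = 2.87e-08), and 0.158, 0.174, and 0.187 with co-treatment (ΔΨ 0.122, SE 0.00987, adjusted p = 1.69e-20). At 2 days of co-treatment it rose by 0.0457 (SE 0.00614, adjusted p = 5.07e-07). Co-treatment exceeded GSK591 alone by 0.0743 at 4 days (adjusted p = 6.77e-09) and by 0.0414 at 2 days (adjusted p = 0.00173). The 2-day value of that difference was 0.0362 without GSK591 library a, and its call was lost without GSK591 library b (adjusted p = 0.0672). Neither difference from GSK591 was called with limma on log2 odds (adjusted p of 0.285 at 2 days and 0.128 at 4 days). At 7 days GSK591 gave a rise of 0.0247 (adjusted p = 0.000764), which missed the threshold without GSK591 library c (adjusted p = 0.0518). MS023 at 2 days also rose, by 0.0232 (SE 0.00650, adjusted p = 0.0192), but that call was lost without DMSO library c (adjusted p = 0.174) or any 1 MS023 library (adjusted p 0.0565 to 0.110).

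SRRM1 also uses a pair of donor sites 6 bases apart. The stretch around them is shown because the first 2 intron bases after each donor, in capitals, are the same GT.
SRRM1 donor region, chr1:24981612-24981626: cagGTaaagGTaaaa

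Use of the outer donor, which adds the 6 bases, was 0.812, 0.776, and 0.813 in DMSO at 4 days, 0.850, 0.875, and 0.870 with GSK591 at 2 days, and 0.868, 0.872, and 0.854 at 4 days. At both times GSK591 lay above DMSO, with ΔΨ of 0.0644 (SE 0.0142, adjusted p = 0.0296) and 0.0640 (SE 0.0133, adjusted p = 0.0288). Both calls were weak. At 2 days it was kept only without GSK591 library a (adjusted p = 0.0312), and at 4 days it was lost without DMSO library b or GSK591 library a or b (adjusted p of 0.181, 0.0699, and 0.0867). At 7 days GSK591 gave 0.920, 0.897, and 0.870 against 0.812, 0.875, and 0.834 in DMSO, which overlap, and ΔΨ of 0.0556 was not called (adjusted p = 0.151). Among all donor pairs 15.1% were called with GSK591 at 2 days and 21.1% at 4 days. A 38-nt exon of SRRM1, which was singled out after its values were seen, rose with co-treatment from 0.0154 to 0.0449 at 2 days (adjusted p = 0.0186) and to 0.0540 at 4 days (adjusted p = 0.00186).

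SRRM2, a scaffold protein of nuclear speckles, has a 95-nt exon at chr16:2818506-2818600 (plus strand) in the decay target SRRM2-210. The exon reaches a stop codon at base 11, in capitals in its first bases.
SRRM2 95-nt exon, chr16:2818506-2818518: aggacagaacTAG

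In DMSO at 4 days the exon was included at 0.129, 0.120, and 0.114. Co-treatment brought it to 0.288, 0.299, and 0.238 at 2 days and to 0.230, 0.254, and 0.232 at 4 days, all above DMSO. ΔΨ was 0.154 (SE 0.0190, adjusted p = 7.02e-21) and 0.118 (SE 0.00889, adjusted p = 1.75e-14), and with limma on log2 odds both calls were lost (adjusted p of 0.195 and 0.267). Each inhibitor alone gave less. MS023 at 2 and 4 days had means of 0.127 and 0.109 that overlapped DMSO (adjusted p of 0.744 and 0.691). GSK591 at 4 days gave 0.159, 0.172, and 0.152, a ΔΨ of 0.0404 (SE 0.00726, adjusted p = 0.0443) whose call was lost in all 6 fits that left out 1 library (adjusted p 0.0581 to 0.207). At 2 days GSK591 gave 0.114, 0.196, and 0.172, where library a lay within DMSO (ΔΨ 0.0399, adjusted p = 0.119), and without it ΔΨ was 0.0632 with an adjusted p of 0.00314. Co-treatment exceeded GSK591 by 0.114 at 2 days (adjusted p = 1.46e-08), or by 0.0910 without library a (adjusted p = 0.000669), and by 0.0774 at 4 days (adjusted p = 0.000126), while with limma on log2 odds neither was called (adjusted p of 0.475 and 0.444). GSK591 minus MS023 at 2 days was 0.0332 (adjusted p = 0.174), and 0.0566 without library a (adjusted p = 0.00428).

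At 7 days the order of these groups was another. DMSO gave 0.270, 0.242, and 0.232, more than DMSO at 4 days in every library, and GSK591 gave 0.0919, 0.112, and 0.110. The fall (ΔΨ -0.143, SE 0.0130, adjusted p = 1.83e-10) was kept in all 6 fits without 1 library but lost with limma on log2 odds (adjusted p = 0.256). MS023 at 7 days gave 0.214, 0.211, and 0.161 (ΔΨ -0.0523, adjusted p = 0.240), and GSK591 minus MS023 was -0.0908 (adjusted p = 2.67e-06). The call between the inhibitors was lost with limma on log2 odds (adjusted p = 0.118). With a prior of the dispersion taken from all events it was lost too (adjusted p = 0.132), while the MS023 fall against DMSO was then called (adjusted p = 0.0130).

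The 63-nt coding exon of SRRM2 at chr16:2808986-2809048 fell slightly with GSK591 and with co-treatment. It was 0.999, 0.996, and 0.991 in DMSO at 4 days and 0.966, 0.978, and 0.950 with GSK591 at 4 days, without overlap (ΔΨ -0.0309, SE 0.00852, adjusted p = 1.47e-06). Co-treatment gave means of 0.975 at 2 days and 0.975 at 4 days (adjusted p of 0.000838 and 0.000612). At 2 days GSK591 was called at 0.979 ± 0.0130 although its library a, with 200 reads, overlapped DMSO, and without that library ΔΨ was -0.0227 in place of -0.0159. That call was lost without GSK591 library b (-0.00974, adjusted p = 0.157). At 7 days ΔΨ was -0.0161 (adjusted p = 0.00990), lost without DMSO library b or c or GSK591 library c (adjusted p 0.0664 to 0.149). All 5 of these calls were lost with limma on log2 odds. The adjusted p was 0.276, 0.0818, and 0.0902 with GSK591 at 2, 4, and 7 days. With co-treatment at 2 and 4 days it was 0.0799 and 0.0691. None of the 3 MS023 groups passed the test. AGAA starts 5 times in this exon. Of the 557 listed exons of that length 1, which is this exon, has as many (0.180%), while 41.5% hold at least 1. Such density was not shared by most other named cassette exons. AGAA starts 1 time in the SRRM2 95-nt, SRSF10 51-nt and 54-nt, SRSF11 117-nt, and TRA2B 134-nt exons. It starts 0 times in the SRRM1 42-nt and 130-nt, SRSF11 33-nt, and TRA2A 90-nt exons. The TRA2A 312-nt and 726-nt segments, which overlap the 301-nt exon, hold 13 and 14, and the SRRM2 6701-nt exon holds 99.

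Other SRRM2 calls rest on less. The 6701-nt coding exon was included in 1.00 of reads in DMSO, and its call with GSK591 at 2 days (ΔΨ -0.00500, adjusted p = 0.0369) rests on 2, 0, and 11 skipping reads and was lost without library a (adjusted p = 0.0637) and in 4 of the other 5 such fits. In an event listed as mutually exclusive exons, Ψ of the 6701-nt exon against the 288-nt exon was lower at 7 days with both inhibitors. It was 0.629 ± 0.0120 in DMSO and 0.581 ± 0.00875 with GSK591 (adjusted p = 0.00270). With MS023 it was 0.562 ± 0.0236 (adjusted p = 8.97e-06). SRRM2-201 holds both exons, as exons 11 and 12, so this Ψ compares their reads and does not show a fall in inclusion. In this event the library that stood apart had 0.276 against 0.633 and 0.631 in its group. The ratio of reads on the 63-nt exon to those on the 95-nt exon was also lower at 7 days. It was 1.69 to 1.87 in DMSO, 1.21 to 1.37 with GSK591, and 0.669 to 0.910 with MS023, a difference that was not tested. A 201-nt intron rose at 7 days of GSK591 from 0.0213 ± 0.00403 to 0.0343 ± 0.00394 (adjusted p = 0.0309), a call lost without DMSO library a or c or GSK591 library a or c (adjusted p 0.0628 to 0.137). Between GSK591 and MS023 at 2 days that intron was called with a difference of 0.0415 (adjusted p = 0.00518), of which 0.0167 was left without library a (adjusted p = 0.0282).

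Compared directly, the inhibitors differed in 13 of 76 tested events of the 6 genes at 2 days (9.14% of all tested events), 19 of 72 at 4 days (13.2%), and 15 of 68 at 7 days (11.0%). TRA2A gave 5, 6, and 6 of these calls, and in 5, 6, and 5 of them GSK591 was the higher one, where 4.55%, 6.67%, and 5.89% of all tested events were called higher. In SRSF10 GSK591 was the lower one in 2 of 2 calls at 2 days and 4 of 4 at 4 days, and in 2 of 3 at 7 days, where 4.59%, 6.57%, and 5.08% of all tested events were called lower. Several of these events share exons and reads. Adding MS023 to GSK591 changed 5 of 74 events at 2 days (2.64% of all) and 5 of 73 at 4 days (4.16%). All 10 of these calls were higher under co-treatment, against 0.877% and 1.91% of all tested events called higher. At each time they came from 3 genes (SRSF10, SRRM1, and SRRM2). Several segments were called at both times, so the 10 calls are not separate events. With limma on log2 odds 0 and 0 events were called in these 2 comparisons (10 and 8 at an unadjusted p under 0.05), and with a prior of the dispersion taken from all events 0 and 1.

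Groups of related genes are given beside the share of all tested events, which was 5.37%, 8.77%, and 6.36% with GSK591 at 2, 4, and 7 days, 1.62%, 2.10%, and 2.94% with MS023, and 10.3% and 12.0% with co-treatment at 2 and 4 days. Classical SR proteins had 1 of 52, 10 of 56, and 11 of 48 events called with GSK591. With MS023 they had 7 of 55, 7 of 64, and 9 of 65, of which 3, 5, and 9 were lower, and with co-treatment 13 of 56 and 19 of 53. Their share was below that of all events at 2 days of GSK591 and above it in the other 7 comparisons. Kinases of SR proteins (CLK and SRPK genes) had 3 of 65, 6 of 60, and 3 of 52 calls with GSK591, 3 of 68, 2 of 64, and 10 of 57 with MS023, and 6 of 67 and 8 of 67 with co-treatment. Other proteins with arginine-serine stretches or of speckles had 27 of 333, 39 of 320, and 30 of 282 calls with GSK591, 9 of 275, 8 of 270, and 15 of 281 with MS023, and 48 of 303 and 54 of 329 with co-treatment. NASP, CHEK1, and HIPK3 have a described exon that depends on TRA2 proteins. Together they had 1 of 53, 1 of 50, and 3 of 54 events called with GSK591, shares below those of all events, and 3 of 48, 5 of 53, and 3 of 56 with MS023, shares above those of all events. With co-treatment it was 5 of 40 and 5 of 62. Between GSK591 and MS023 they differed in 8 of 37, 10 of 37, and 5 of 50 events at 2, 4, and 7 days, against 9.14%, 13.2%, and 11.0% of all. These calls cover all listed events of the 3 genes, and their events share exons and reads.

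The exons most like those described were looked up over the 10 group means, among 11326 cassette exons tested in every comparison. The SRSF10 51-nt exon followed an exon of SLC22A17 (Pearson r = 0.994) and one of ARRDC1 (r = 0.981). The SRRM1 42-nt exon followed exons of ARMC10 (r = 0.980) and MBD1 (r = 0.953). For the SRRM2 95-nt exon it was GABBR1 (r = 0.916) and SNX21 (r = 0.862), for the SRSF11 117-nt exon TMEM62 (r = 0.915) and IMMP1L (r = 0.908), and for the TRA2B 276-nt exon KIAA0368 (r = 0.939) and LRTOMT (r = 0.936). All points share the same 30 libraries, and the highest of many correlations is large by selection.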

How the data were processed

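Reads of poly(A)-RNA seq were processed by the authors, who per the submitters' processing notes used Trim Galore 0.6.5, STAR 2.4.2a, Picard 2.3.0, deepTools 3.3.1, and the hg19 build, and listed splicing events with rMATS. The deposited tables each set a treatment against its control and hold in each cell 3 comma-joined read counts, 1 per library, for the inclusion and the skipping form, with the effective length of each form. The design had assumed plain counts, and the joined cells are recorded as another unit. The authors' own p-values, FDR, and Ψ differences in these tables were not used. Their per-library Ψ was recomputed from the counts, and the largest difference from the deposited Ψ was 0.0005 over 6252703 values. Control counts were identical in all 693643 repeat listings of an event under the same control. Between 2 libraries of a group the chi-square per degree of freedom was 1.54 to 2.17, so no 2 libraries held the same counts. This does not show whether they came from separate cultures. The actinomycin D and SKaTER samples were not analysed here.

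Testing required at least 10 reads on the event in each library compared. A quasi-binomial model of inclusion and skipping reads was fitted across all events, with dispersions of at least 1 moderated with limma 3.58.1 in R 4.3.3, and p-values were adjusted by the Benjamini-Hochberg method within event type and comparison (threshold 0.05). Comparisons between GSK591, MS023, and co-treatment used the events listed in both tables. The prior of the dispersion came from events with at least 10 reads of the rarer form. It replaced a first version that failed on simulated data, and the calls of that version for these genes had been seen before the change.

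The 6 genes and all gene lists were chosen with earlier results of these data known. Named segments were, per gene, up to 5 with the largest difference among those called against DMSO with at least 20 reads per library, the retained intron with most reads, and, for TRA2A, TRA2B, and SRSF11, the 1 cassette exon with most reads among those annotated in decay-target or retained-intron transcripts and in no protein-coding transcript. Events were placed on GENCODE transcripts of GRCh37, and sequences were read from GRCh37 with pysam 0.24.0 in Python 3.11.15. Tables were read with data.table (version 1.17.8) and plots drawn with matplotlib 3.10.9. Alternatives were the minimum of reads (20 or none), Ψ without effective lengths, adjustment over all event types, limma on log2 odds with a pseudocount of 0.5, the first prior, and leaving out each library in turn.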

Additional observations from a re-analysis of the deposited data

Results flagged for a closer look

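The SRRM2 95-nt exon, which carries an early stop codon, moved in opposite directions with GSK591 at 2 times of treatment. ΔΨ was 0.0404 at 4 days, where every GSK591 library lay above every DMSO library, and -0.143 at 7 days, where every GSK591 library lay below. The difference between both times was not tested. The DMSO groups themselves differed, with a mean Ψ of 0.121 at 4 days and 0.248 at 7 days, while GSK591 gave 0.161 and 0.104. The 7-day libraries took 72359972 to 77519886 reads on events, and the others at least 80180666. The labels name no batch, so time and any batch of the 7-day libraries cannot be told apart. The 4-day call was lost whenever 1 library was left out (adjusted p 0.0581 to 0.207, limma-moderated test), and the 7-day call was kept in all 6 such fits.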

How the results depend on the processing

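No paired analysis was possible because the columns carry no replicate numbers. Depth was a limit, since 7 of the 147 events were never deep enough to test and differences may go undetected with 3 libraries a group, so an event that was not called is not shown to be unchanged. A minimum of 20 reads and no minimum left every count of calls within 1.5 times. Ψ without effective lengths changes the size of ΔΨ and not the test, which uses read counts. Over the named differences, 95 were called, of which limma on log2 odds kept 16 and lost 79, adjustment over all event types kept 90 and lost 5, and the first prior, which was run first and listed as an alternative after its calls had been seen, kept 65, lost 30, and called 9 more. No difference that was called turned its direction under any alternative.

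With limma on log2 odds the calls against DMSO at 2, 4, and 7 days were 0, 2, and 0 with GSK591 (9 and 16 at an unadjusted p under 0.05 for both zeros), 0, 0, and 0 with MS023 (6, 6, and 8), and 3 and 2 at 2 and 4 days of co-treatment. GSK591 against MS023 gave 6, 10, and 6 calls, and co-treatment against GSK591 gave 0 and 0 (10 and 8). With the first prior the counts that moved by over 1.5 times were 8 (GSK591, 2 days), 7 and 5 (MS023, 4 and 7 days), 6, 4, and 4 (GSK591 against MS023), and 0 and 1 (co-treatment against GSK591). The causes were not tested.

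Leaving out 1 library gave 3 to 6 calls at 2 days of GSK591 (3 without any 1 DMSO library or GSK591 library b), 1 to 2 with MS023 (1 without MS023 library b or c), and 4 to 10 with co-treatment (4 and 5 without DMSO library b and c, and 5 without co-treated library c). At 4 days it gave 9 to 11 with GSK591, 1 to 4 with MS023 (1 without DMSO library b, 4 without c), and 13 to 14 with co-treatment. At 7 days it gave 8 to 12 with GSK591 (9 and 8 without GSK591 library a and c) and 2 to 3 with MS023. GSK591 against MS023 gave 9 to 15, 11 to 18 (11 without MS023 library c), and 6 to 16 (9 without MS023 library b, 6 without GSK591 library a). Co-treatment against GSK591 gave 4 to 7 and 2 to 5 (2 without GSK591 library a, 3 without any 1 co-treated library).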
